A study of Mus musculus with 12 samples.

Results

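To examine where BMAL1 lay at the genes that write and erase histone methylation, BMAL1-ChIP-seq peaks were compared between control and senescent mouse adult fibroblasts (MAFs) at the histone lysine methyltransferases and demethylases. The members were the protein-coding genes of the GENCODE M21 annotation (GRCm38/mm10) whose symbol begins with Kdm, Kmt, Setd, Ezh, Nsd or Suv39, together with Dot1l, Ehmt1, Ehmt2, Jarid2 and the numbered Smyd genes. The rule found 53 of 21864 protein-coding genes, and a peak belonged to the gene whose start site was nearest to its midpoint. By function, 34 members are methyltransferases or their SET-domain and Polycomb relatives, 18 are demethylases, and 1, Nsdhl, is a steroid dehydrogenase that only its symbol brought in.

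The cells were primary MAFs, grown from the ears of adult female C57BL/6 mice, which carry no engineered allele in this experiment. Senescent cells received 20 Gy of X-rays and control cells were sham irradiated. The methods kept irradiated cells in culture for some weeks after the dose and give no such time for control cells. Time in culture may therefore differ between the groups, and its part cannot be told apart from that of irradiation. Both groups were kept in 10% serum at 3% oxygen, and both were given 100 nM dexamethasone, a glucocorticoid that sets the clocks of cultured cells to one phase, and collected 12 hours later, so no library shows cells without the hormone. Each group had 3 BMAL1-ChIP-seq libraries, and neither the labels nor the methods say whether they came from separate animals or cultures, so the spread between them may be technical. Chromatin bound by BMAL1 (the clock factor that pairs with CLOCK to bind DNA) was precipitated with an antibody and sequenced, and the authors called peaks in each library with the false discovery rate (FDR) held to at most 1%.

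Histone lysine methyltransferases add methyl groups to lysines of the histone tails and demethylases remove them. Methylation of H3K4 marks promoters and enhancers in use, that of H3K36 and H3K79 marks transcribed gene bodies, and that of H3K9 and H3K27 marks silenced chromatin. Several of these enzymes are known to work with the clock: KMT2A (MLL1) and KDM5A (JARID1A) bind CLOCK and BMAL1, and EZH2 has been found with CLOCK as well. KDM6B (JMJD3) removes H3K27 methylation from the Ink4a/Arf locus, which encodes the cell cycle inhibitor p16, and EZH2 places it there. The CLOCK and BMAL1 pair binds the E-box CACGTG, and AP-1, the FOS and JUN family of stress-responsive factors, binds TGACTCA or TGAGTCA. An exact match of these letters is a description of the sequence and does not show that the factor was bound.

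Sequences from a selection of the regions that carry the results are shown first, read from GRCm38 on the forward strand. The motif is in capitals and the coordinates of the stretch are printed. Left out is the E-box 278786 bp downstream of the Setd4 start site, in a region called in all 6 libraries. The first group comes from regions called in all 6 libraries: 2 E-boxes 4044 and 5250 bp upstream of the Kdm6b start site, 1 each 246 bp upstream of Kdm4b and 128 bp upstream of Kdm2a, 2 at 224 and 18 bp upstream of Ehmt2, and 2 AP-1 motifs in the region 424350 bp upstream of Jarid2.
Kdm6b, chr11:69417689-69417748: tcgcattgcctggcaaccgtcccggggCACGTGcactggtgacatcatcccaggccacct
Kdm6b, chr11:69418895-69418954: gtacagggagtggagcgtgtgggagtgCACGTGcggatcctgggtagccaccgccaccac
Kdm4b, chr17:56325798-56325857: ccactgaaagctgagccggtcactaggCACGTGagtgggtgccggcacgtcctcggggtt
Kdm2a, chr19:4397178-4397237: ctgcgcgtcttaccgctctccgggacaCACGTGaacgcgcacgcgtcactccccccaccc
Ehmt2, chr17:34898215-34898274: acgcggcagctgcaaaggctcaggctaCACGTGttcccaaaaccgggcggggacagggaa
Ehmt2, chr17:34898436-34898465: tccctccttgtcCACGTGacccggggcggc
Jarid2, chr13:44306321-44306381: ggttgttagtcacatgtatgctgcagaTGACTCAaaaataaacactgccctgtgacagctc
Jarid2, chr13:44306517-44306577: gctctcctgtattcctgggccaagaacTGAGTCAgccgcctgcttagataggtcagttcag

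The next group comes from regions called in the senescent libraries and in none of the control libraries, together with Nsd3, which had 1 weak control peak. It holds the E-box 29782 bp upstream of Kdm6b, the pair 140 and 108 bp upstream of Kdm4c, and those 1092 bp upstream of Kmt2c, 16 bp downstream of the Smyd4 start site and 46 bp upstream of Nsd3. Only E-boxes are printed here. AP-1 motifs also lie in the senescent-only regions of Kdm6b, 2906 and 1928 bp downstream and 29920 bp upstream of its start site. The senescent-only regions of Kmt2e and Smyd5 hold neither motif.
Kdm6b, chr11:69443428-69443487: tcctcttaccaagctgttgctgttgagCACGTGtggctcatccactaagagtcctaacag
Kdm4c, chr4:74251767-74251826: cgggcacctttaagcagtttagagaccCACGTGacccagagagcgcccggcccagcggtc
Kdm4c, chr4:74251799-74251858: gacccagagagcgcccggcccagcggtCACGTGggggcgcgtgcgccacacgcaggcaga
Kmt2c, chr5:25499808-25499867: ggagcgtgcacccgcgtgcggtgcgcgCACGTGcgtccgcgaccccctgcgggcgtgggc
Smyd4, chr11:75348434-75348463: cggcaggcagagCACGTGactcttccgagg
Nsd3, chr8:25601526-25601585: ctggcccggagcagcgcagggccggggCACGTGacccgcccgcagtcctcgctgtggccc

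The last group comes from regions called in control and in no senescent library, 1 assigned to Setd4 over 233954 bp and 1 lying 4164 bp upstream of Kdm5b. Not printed are the other E-box of this Kdm5b region, 4220 bp upstream, and that of another control-only Setd4 region, 215882 bp downstream.
Setd4, chr16:93369820-93369879: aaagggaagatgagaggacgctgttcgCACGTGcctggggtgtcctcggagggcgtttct
Kdm5b, chr1:134555977-134556036: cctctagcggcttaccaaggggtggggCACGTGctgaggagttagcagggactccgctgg

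The 3 control lists held 2794, 3349 and 10601 peaks and the 3 senescent lists held 4220, 9805 and 5053. Only these peak lists were used here, and they give positions and scores alone, which leaves sequencing depth unknown. A gene without a peak was therefore not called at this depth, and nothing follows from that about absence of BMAL1 binding. List length differed more within the groups than between them, and control replicate 3 and senescent replicate 2 were the longest lists of their groups. Because a score is not comparable between libraries, each peak was ranked by score within its own list, where rank 1 is the best and tied scores share a mean rank. Ranks were not scaled to list length, so the same rank lies deeper in a shorter list.

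BMAL1 peaks were called at more of the histone methylation enzymes than of protein-coding genes at large, in every library. This was not particular to the members, since related chromatin genes outside the rule were also above all genes in every library but control replicate 1. Of the 53 members, 37 had a peak in at least 1 library, against 7951 of the 21864 protein-coding genes (36.4%). A peak in all 6 libraries was found for 6 of the 53, against 1123 of the 21864 (5.14%). Peaks in senescent libraries only were found for 10 of the 53, beside 2165 of the 21864 (9.90%). Peaks in control libraries only were found for 5 of the 53, beside 1527 of the 21864 (6.98%). The control libraries called 8, 13 and 26 members, which is 15.1%, 24.5% and 49.1% of them, beside 9.32%, 10.8% and 25.3% of all genes. The senescent libraries called 18, 30 and 16 members, or 34.0%, 56.6% and 30.2%, beside 14.4%, 26.5% and 16.6% of all genes. The member share was 1.62 to 2.36 times that of all genes, with the lowest ratio in control replicate 1 and the highest in senescent replicate 1. Members also lay in wider spaces: the median stretch of genome nearer to a gene's start sites than to those of any other was 72.1 kb for members and 47.3 kb for all genes, and its part in these shares was not tested.

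The same held at promoters, where a peak centre lay within 1000 bp of a start site. Control libraries had 5, 6 and 13 members with such a peak (9.43%, 11.3% and 24.5% of members), beside 3.72%, 4.52% and 12.9% of all genes. Senescent libraries had 12, 21 and 10 (22.6%, 39.6% and 18.9% of members), beside 7.15%, 16.7% and 8.38% of all genes. On these full lists the lowest senescent count was below the highest control count, so the groups overlapped. With every list shortened to its 2794 best peaks, such a peak was found for 5, 3 and 5 members in control. In senescent cells it was found for 7, 7 and 6, so these counts did not overlap. Neither did the shares over all genes, at 3.72%, 3.98% and 4.57% in control and 5.02%, 5.82% and 4.98% in senescent cells. Whether members differ from all genes in this was not tested.

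Between the groups, the share of members called averaged 29.6% ± 17.5 in control and 40.3% ± 14.3 in senescent cells (SD, n = 3 each), a difference of 10.7 percentage points beside 4.0 over all genes. The ranges overlapped, and the difference was smaller than the SD of either group. When every list was shortened to its 2794 best peaks, control libraries called 8, 9 and 12 members and senescent libraries 10, 12 and 11. The shares were then 18.2% ± 3.93 and 20.8% ± 1.89 for members, beside 9.53% ± 0.277 and 10.3% ± 0.014 for all genes. At equal list length the members stayed above all genes in each of the 6 libraries. The control and senescent counts of members with a peak at any distance overlapped. The shares over all genes did not overlap there, at 9.32%, 9.43% and 9.85% in control and 10.3% in each senescent library. The share of each full list that lay at members did not overlap either, at 0.465%, 0.478% and 0.424% of peaks in control and 0.521%, 0.602% and 0.515% in senescent cells. It rests on 13, 16 and 45 peaks in control and 22, 59 and 26 in senescent cells, where several peaks at 1 gene count separately. No such share was computed for other sets of genes or at equal list length, and whether it is particular to members was not tested.

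**Figure D1:**
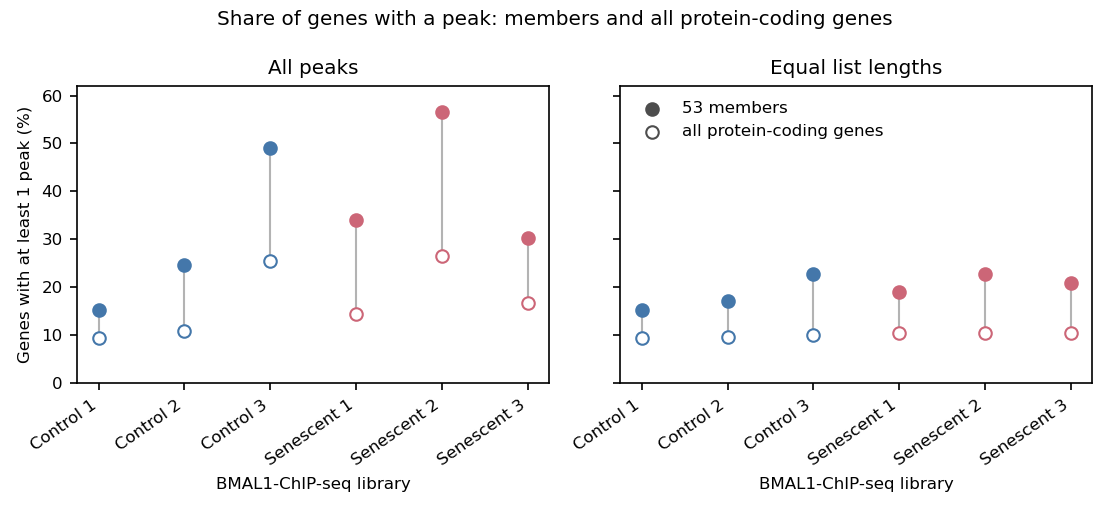
Share of genes with at least 1 BMAL1 peak (y axis, %) in each of the 6 libraries (x axis), for the 53 members (filled points) and all protein-coding genes (open points), with control libraries in blue and senescent libraries in red. The left panel uses all peaks and the right panel the 2794 best peaks of each list, and in both the members lie above all genes in every library while the control and senescent points of the members overlap. The open points of the right panel do not overlap, with 9.32% to 9.85% in control and 10.3% in each senescent library.

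By enzyme class the members called in some library ran from 1 of 6 to 8 of 8, to be read beside the 36.4% of all genes. The classes are small, and differences between them were not tested. Among the H3K4 methyltransferase group, most of which are catalytic subunits of COMPASS complexes, 8 of 8 members had a peak in some library and 0 had one in all 6. Kmt2e, a SET-domain protein grouped with the MLL family by name, with no established activity on H3K4, was called in 5 libraries, Kmt2b, Kmt2c and Setd1b in 2 each, and Kmt2a, Kmt2d, Setd1a and Setd7, an enzyme outside COMPASS, in 1 each. Kmt2a, the clock partner MLL1, had its peak in senescent replicate 1 at rank 2798, 180 bp upstream of a start site. Senescent replicate 2 called 6 of the 8, beside 26.5% of all genes, and control replicate 1 called 0, beside 9.32%.

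Of the H3K9 methyltransferases 1 of 6 was called. Ehmt2, which encodes G9a and places the mono- and dimethyl forms of H3K9, had a peak in all 6 libraries. Its partner Ehmt1 and the trimethylating enzymes Setdb1, Setdb2, Suv39h1 and Suv39h2 had none in any library.

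Of the Polycomb repressive complex 2 genes, which write H3K27 methylation, Jarid2, a non-catalytic subunit that guides the complex to chromatin, was called in all 6 libraries. Ezh2, its catalytic subunit, was called in 5, and the related Ezh1 in 0. The Ezh2 peak lay 55897 bp upstream, outside any gene, at ranks 672 and 1947 in control replicates 2 and 3 and 2798, 3135 and 4126 in the senescent libraries. The called control ranks were better than the senescent ones, but control replicate 1 had no peak there, so the groups were not separated.

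All 4 H3K36 methyltransferases had peaks. Nsd1 was called in 5 libraries, Nsd3 in 4, and Nsd2 and Setd2, the enzyme of H3K36 trimethylation, in 3 each. All 4 enzymes of H3K79 and H4K20 methylation were also called, Dot1l in 4 libraries, Kmt5c in 3, Kmt5b in 2 and Kmt5a in 1. The Nsd1 peak lay 19455 bp upstream at ranks 1837.5 and 847 in control replicates 1 and 3 and 3523.5, 1634.5 and 693.5 in senescent cells, and the groups overlapped. Control replicate 3, a long list, called 8 of these 8 members, beside 25.3% of all genes. Senescent replicate 2, also long, called 7, beside 26.5% of all genes.

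The SMYD and remaining SET-domain proteins, several of which act on substrates other than histones, had 6 of 9 members called. Setd4 had a peak in 6 libraries, Setd5 in 5, Smyd4 and Smyd5 in 2 each, and Setd3, an actin histidine methyltransferase, and Setd6 in 1 each. Smyd1, Smyd2 and Smyd3 had none. The Setd5 peak lay 1018 bp upstream at ranks 1023 and 3853 in control replicates 1 and 3 and 4076, 1198 and 2014.5 in senescent cells, and the groups overlapped.

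Among the demethylases, 12 of 18 members had a peak, beside 36.4% of all genes, and 3 had one in all 6 libraries, beside 5.14%. Of the H3K4 demethylases 2 of 6 were called, a share near the 36.4% of all genes. Kdm5b was called in 4 libraries and the clock partner Kdm5a in 1, control replicate 2, at rank 2833.5 and 380 bp upstream. The flavin-dependent enzymes Kdm1a (LSD1) and Kdm1b and the sex-linked Kdm5c and Kdm5d had no peak.

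Of the JmjC demethylases of H3K9 and H3K36, 8 of 9 were called. Kdm2a and Kdm4b had a peak in all 6 libraries, Kdm3a in 4, Kdm4a in 3, Kdm4c in 2, and Kdm2b, Kdm3b and Kdm8 in 1 each, while Kdm4d had none. The Kdm3a peak, 26 bp upstream of its start site, ranked 1070.5 and 2348.5 in control replicates 2 and 3 and 2542.5 and 1231 in senescent replicates 2 and 3, with no order between the groups. Of the H3K27 demethylases, Kdm6b was called in all 6 libraries and Kdm7a in 2, and the X-linked Kdm6a in 0. With Nsdhl, these make up the 16 members never called. Of the 11 members called in a single library, 8 were called only in control replicate 3 or senescent replicate 2, the longest lists. The matching share over all genes was not computed, so nothing particular to the members is read from this count.

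**Figure D2:**
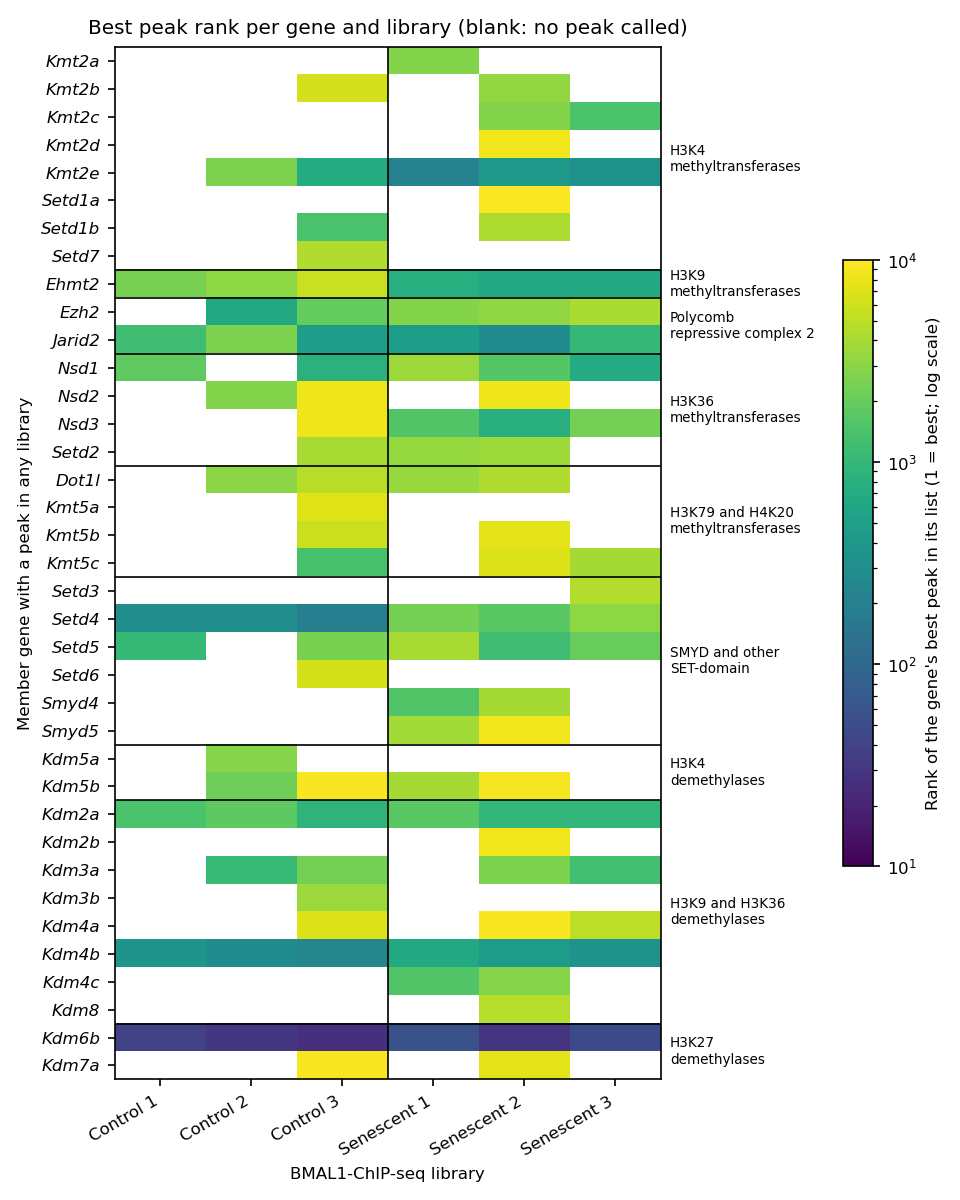
Rank of the best BMAL1 peak (colour, log scale, dark is better, blank means no peak) of the 37 members with a peak, in rows grouped by enzyme class, in the 3 control and 3 senescent libraries (columns). Kdm6b is the darkest row in every library, the blank cells are fewest in control replicate 3 and senescent replicate 2, and Ehmt2 and Setd4 change shade between the groups in opposite directions.

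Kdm6b had the best-ranked peak of all members in every library. The region, chr11:69417498-69419375, was called in all 6, lies outside any gene and is centred 4773 bp upstream of the nearest Kdm6b start site. It ranked 39, 30 and 26 in the control libraries and 56, 29 and 47 in the senescent libraries. These ranks lie near the top of every list, and the groups overlapped (exact permutation test, two-sided, p = 0.3). At 1878 bp it was wide, and the E-boxes printed for it lie 729 and 477 bp from its centre, outside the window of 100 bp on each side used for motif counts.

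Kdm4b, a demethylase of H3K9 and H3K36 trimethylation, had the next best mean rank among the members called in all 6 libraries, although Setd4 was ahead of it in control replicates 1 and 3 and Jarid2 in senescent replicates 1 and 2. Its region, chr17:56325466-56326093, is centred 311 bp upstream of the start site. It ranked 360.5, 288 and 242.5 in control cells and 657, 449 and 338 in senescent cells. The control ranks were better on average, but the weakest control rank was worse than the best senescent rank (p = 0.2, exact permutation test, adjusted p = 0.897 over all genes). Kdm2a, an H3K36 demethylase that binds unmethylated CpG islands, was called at chr19:4396980-4397550, in an intron of a longer transcript and 143 bp upstream of the nearest start site, at ranks 1420, 1781.5 and 882 in control and 1714.5, 981 and 970 in senescent cells. These values were intermixed (p = 0.9, exact permutation test).

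The Jarid2 region in all 6 lists, chr13:44306174-44306674, lies 424350 bp upstream of its start site, so that its assignment rests only on the lack of a nearer protein-coding gene. It ranked 1443.5, 2533.5 and 1122.5 in control cells and 484.5, 284 and 996.5 in senescent cells. All senescent ranks were better than all control ranks at this region. By gene the groups overlapped, since control replicate 3 had a better Jarid2 peak, at rank 484 and 436828 bp upstream (p = 0.3, exact permutation test). Near its own start site Jarid2 had peaks in 5 libraries, 124 bp upstream at ranks 9917.5 in control replicate 3 and 1146.5 and 2856 in senescent replicates 2 and 3, and 48 bp downstream, in the UTR, at 1210 in control replicate 1 and 2245 and 3335 in senescent replicates 1 and 2.

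To compare the groups, the best rank of each gene was tested with an exact two-sided permutation test over all 20 arrangements of the 6 libraries, with a gene lacking a peak placed after every peak. With this exact test a design of 3 against 3 cannot go below p = 0.1, the value of any gene whose groups are fully apart. Of the 37 members with a peak, 3 were separated with better ranks in senescent cells, Ehmt2, Kmt2e and Nsd3, beside 12.0% of all 7951 genes with a peak. One member, Setd4, was separated with better ranks in control cells, beside 6.06% of all such genes. After Benjamini-Hochberg adjustment over the 7951 genes the smallest adjusted p was 0.553, so 0 genes passed 0.05. The counts among members are near what those percentages give for 37 genes.

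Ehmt2 was called at its promoter in every library. The region, chr17:34897646-34898622, spans the start site and is centred 115 bp upstream of it. It ranked 2447.5, 3075 and 5544.5 in control and 752.5, 673 and 644.5 in senescent cells. Every senescent rank was better than every control rank, and the 3 senescent values lay closer together than the control values (p = 0.1, exact permutation test, adjusted p = 0.553).

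Nsd3, an H3K36 dimethyltransferase, was called 148 bp upstream of its start site at chr8:25601264-25601663. It ranked 1522, 759 and 2350 in the senescent libraries and 8375.5 in control replicate 3, with no peak in control replicates 1 and 2. The lone control peak stood in a list of 10601 peaks (p = 0.1, exact permutation test, adjusted p = 0.553).

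Kmt2e had no peak in control replicate 1, best ranks of 2533.5 and 720 in control replicates 2 and 3, and 213, 413.5 and 342 in senescent cells (p = 0.1, exact permutation test, adjusted p = 0.553). The senescent values came from a region 39903 bp upstream, chr5:23394218-23394777, that no control list held. Its nearest start site of any biotype was that of Gm42509, 1565 bp away, and counting such start sites takes the region from Kmt2e. A nearer region, chr5:23432698-23433635, 1348 bp upstream of the Kmt2e start site, was called in control replicates 2 and 3 at ranks 2533.5 and 720 and in senescent cells at 1144.5, 2357.5 and 943. There the groups overlapped.

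Setd4 was the member with the better control ranks, 303, 304 and 190 against 2358.5, 1703.5 and 3090 in senescent cells (p = 0.1, exact permutation test, adjusted p = 0.553). Both regions behind these values were far from the gene. The control ranks came from chr16:93368940-93369924, 234371 bp downstream of the Setd4 start site and 288 bp from that of the microRNA gene Mir802. The senescent ranks came from a region called in all 6 libraries, chr16:93324908-93325322, 278688 bp downstream, which ranked 727.5, 980 and 497 in control cells. At the Setd4 promoter itself a peak was called only in senescent replicate 2, at rank 2742.5.

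**Figure D3:**
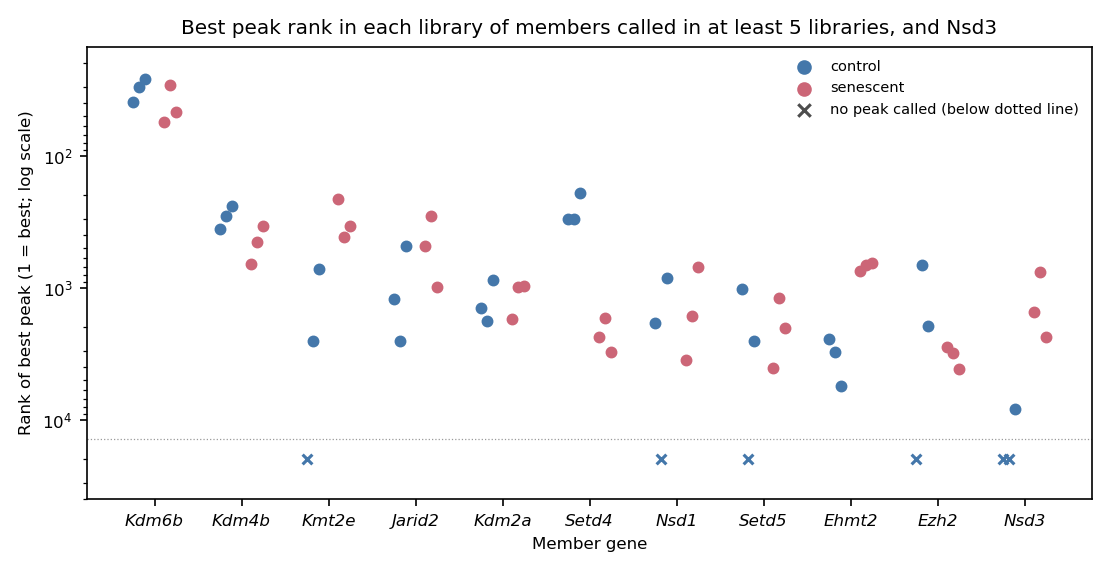
Rank of the best BMAL1 peak (y axis, log scale, rank 1 at the top) of the 10 members called in at least 5 libraries and of Nsd3 (x axis), 1 point per library, control in blue and senescent in red, with crosses below the dotted line for libraries without a peak. The groups do not overlap for Kmt2e, Ehmt2 and Nsd3, where senescent ranks are better, nor for Setd4, where control ranks are better, and they overlap for the other 7 genes.

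To see which stretches of DNA were called in one group alone, peaks of all libraries were merged into regions, of which 80 of 16818 belonged to members. Among member regions 6 (7.5%) were called in all 6 libraries, beside 6.58% of all regions. Regions called in at least 2 senescent and no control library numbered 8 (10.0%), beside 9.44%, and the reverse numbered 3 (3.75%), beside 5.86%. A further 40 (50%) were called in 1 library, beside 55.7%.

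Kdm6b held 3 of the 8 senescent-only regions. One lies 29796 bp upstream, in an intron of the neighbouring gene Dnah2, at chr11:69443328-69443687. It ranked 1084.5, 2430.5 and 888 in the 3 senescent libraries. Its nearest start site of any biotype was that of Dnah2os, 5077 bp away, and counting such start sites takes the region from Kdm6b. The others lie in introns of Kdm6b, 2963 and 1830 bp downstream of its start site, and were called in senescent replicates 2 and 3 at ranks 7287 and 4943.5 and at 5121.5 and 4340. Those lists held 9805 and 5053 peaks, so the ranks in senescent replicate 3 lay toward the end of its list. Both intronic regions held an AP-1 motif and no E-box, whereas the upstream one held 1 of each. The control libraries called no Kdm6b region other than the one centred 4773 bp upstream.

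The remaining senescent-only regions were the Kmt2e region described above, called in 3 of 3 senescent libraries, and 4 called in 2 of 3. Kdm4c, a demethylase of H3K9 trimethylation, had a region 61 bp upstream of a start site at chr4:74251587-74252120, with ranks 1544.5 and 2830 in senescent replicates 1 and 2. Kmt2c (MLL3), an enhancer H3K4 methyltransferase, had one 1063 bp upstream at chr5:25499619-25499942, with ranks 2742.5 and 1398.5 in senescent replicates 2 and 3. Smyd4 had one over its start site at chr11:75348327-75348542, with ranks 1532 and 3935.5, and Smyd5 one 110 bp upstream at chr6:85431828-85432104, with ranks 3834.5 and 8730, both in senescent replicates 1 and 2. Kdm4c, Kmt2c and Smyd4 held an E-box in the region and Smyd5 did not. Since each of these 4 lacks a peak in 1 senescent library, the exact test gave p = 0.4 for each gene.

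The 3 control-only regions belonged to Setd4 and Kdm5b. Besides the Setd4 region near Mir802, called in 3 of 3 control libraries, another at chr16:93387806-93388070 was called in control replicates 1 and 3 at ranks 1443.5 and 7846.5. Kdm5b, a demethylase of H3K4 trimethylation, had a region 4041 bp upstream at chr1:134555940-134556201, called in control replicates 2 and 3 at ranks 2197.5 and 9430, with 2 E-boxes. Senescent replicates 1 and 2 called other regions 3785 to 3058 bp upstream of Kdm5b, so that its control-only region had senescent neighbours within the same stretch.

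**Figure D4:**
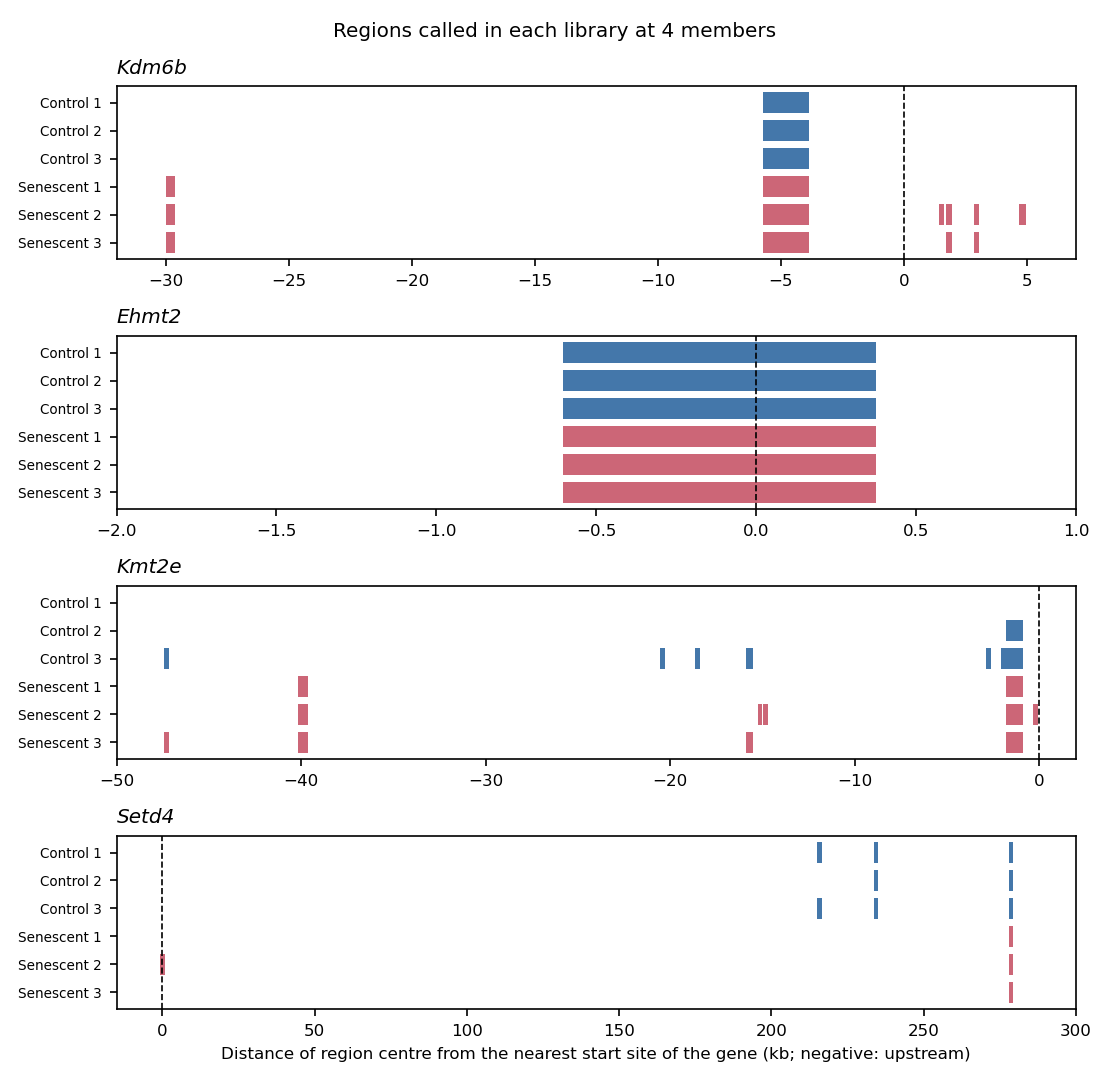
Regions called in each library (rows, control in blue and senescent in red) at Kdm6b, Ehmt2, Kmt2e and Setd4, by distance from the nearest start site of the gene (x axis, kb, negative is upstream, dashed line at 0). Each region is drawn at the width it has after merging over libraries, or at a minimum width where it is narrower than that. The region upstream of Kdm6b is present in all 6 rows while those in its introns and 29796 bp upstream are in senescent rows only, and the Setd4 regions lie over 200 kb from the gene except for 1 in senescent replicate 2.

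By position, 30 of the 80 member regions (37.5%) lay at a promoter, beside 33.9% of all regions, and 8 (10.0%) lay more than 50 kb from the start site, beside 21.7%. Of the 6 regions called in all libraries, those of Ehmt2, Kdm2a and Kdm4b were at promoters, that of Kdm6b lay a few kilobases upstream, and those of Jarid2 and Setd4 were far from the gene. Promoter peaks made up 40.0% ± 3.27 of member peaks in control and 45.7% ± 8.16 in senescent cells (SD, n = 3), and these ranges overlapped. Over all peaks the shares were 32.1% ± 0.703 and 41.7% ± 2.83, and there they did not.

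E-boxes were searched as CACGTG, which reads the same on both strands, within 100 bp of the centre of the best-ranked peak. They were found in 16 of 80 member regions (20.0%), beside 16.7% of all regions. At promoters 5 of 30 member regions held one (16.7%, beside 19.5%), and elsewhere 11 of 50 (22%, beside 15.2%). The AP-1 motif was found in 7 member regions (8.75%), beside 16.5% of all regions. It was in 0 of 30 promoter regions of members, beside 4.79%, and in 7 of 50 others (14.0%), beside 22.4%. The E-box variants CACGTT and AACGTG, which are reverse complements, were in 5 (6.25%), beside 6.01%, and those of Setd5 lie 1002 and 932 bp upstream in the region called in 5 libraries.

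By library, 69.2%, 37.5% and 20.0% of member peaks in control cells and 50%, 27.1% and 34.6% in senescent cells had an E-box within 100 bp of the centre. Over all peaks the shares were 30.8%, 23.9% and 13.6% in control and 40.0%, 23.2% and 33.3% in senescent cells. Member means were 42.2% ± 25.0 in control and 37.2% ± 11.7 in senescent cells (SD, n = 3), and the groups overlapped. The control replicate 1 value rested on 9 of 13 peaks. Windows of 200 bp placed 2000 bp to each side of the same peaks held an E-box in 3.98% ± 3.37 and 2.13% ± 1.96. For AP-1 the member means were 9.69% ± 2.5 and 9.55% ± 2.12, beside 12.9% ± 0.216 and 16.7% ± 0.369 over all peaks. The rise over all peaks was not seen in the member means, but member peaks numbered only 13 to 59 a library, and the difference between the rises was not tested.

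In the RefSeq promoter sequences of GRCm38, which run from 250 bases before to 50 after a start site, 41 of the 53 members were matched by symbol. An E-box was present in 4 of them, Ehmt2, Kdm4c, Kdm6a and Smyd4 (9.76%), beside 8.09% of all 27025 symbols. Of these 4 genes Ehmt2 was called in all 6 libraries, Kdm4c and Smyd4 only in senescent libraries, and Kdm6a in none. By the GENCODE start sites, E-boxes also lay 246, 128 and 46 bp upstream of Kdm4b, Kdm2a and Nsd3, which are not among the 4. Kdm4b and Kdm2a were called in all 6 libraries and Nsd3 in 4. Whether these genes were unmatched or had another start site in the RefSeq sequences was not examined. AP-1 motifs were in the promoters of Kdm3a, Kdm4a and Kdm5c (7.32%, beside 5.95%).

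The proteins that work beside these enzymes were covered by a list of 58 genes outside the rule, made up of COMPASS subunits, Polycomb proteins, readers of H3K9 methylation and related enzymes. Of these 58 genes, 33 had a peak in some library, beside 7951 of 21864 protein-coding genes (36.4%). By library, 8.62%, 13.8% and 39.7% of the related genes had a peak in control and 20.7%, 43.1% and 24.1% in senescent cells. Over all genes the shares were 9.32%, 10.8% and 25.3% in control and 14.4%, 26.5% and 16.6% in senescent cells. The related genes were thus above all genes in every library but control replicate 1. In all 6 libraries 2 of the 58 had a peak, beside 1123 of 21864 (5.14%). They were Wdr5, a core subunit of COMPASS, and Atf7ip, a cofactor of the H3K9 methyltransferase SETDB1. Separated toward better senescent ranks were 5 of the 33, beside 12.0% of all genes with a peak, and toward control 0, beside 6.06%. The 5 were Wdr5 and Paxip1 of the COMPASS group and Bcor, Cbx8 and Rybp of the Polycomb repressive complex 1 group. Wdr5 ranked 469, 412.5 and 3530 in control and 201, 399 and 380 in senescent cells. Cbx8, a chromodomain reader of H3K27 methylation, had no control peak and ranked 2371.5, 4596 and 4549 in senescent cells.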

How the data were processed

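The analysis used the peak lists of 6 BMAL1-ChIP-seq libraries (3 control, 3 senescent). Groups and replicate numbers came from the sample titles, and the 6 input libraries were not analysed here. The authors aligned paired reads to mm10 (Burrows-Wheeler Aligner), discarded pairs without a uniquely placed end, dropped PCR duplicates (Picard) and, library by library, called peaks by MACS2 (HiChIP pipeline, FDR up to 1%). Whether the input served as control, and the MACS2 version, are not given in the sources used here. The labels and the methods name antibodies of different suppliers. The authors deposited 1 score per peak, taken here as a −log10 q-value since no list held a score under 2 (minima 2.02 to 2.12). It depends on the depth of its own library, so it served only for ranks within a list. The read-based comparison of the study was not repeated, since the lists hold no reads.

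Members, classes and related genes were chosen with earlier results of these data known, so no test was made over a list. A peak was assigned by its midpoint to the nearest start site of a protein-coding transcript in the GENCODE basic annotation M21, at any distance. Peaks overlapping by at least 1 bp were merged into regions. Best ranks per gene were tested by exact two-sided permutation of the libraries and adjusted by the Benjamini-Hochberg method over all genes with a peak. By rule every member was named, and full values went to members called in all 6 libraries and members with a region called in at least 2 libraries of 1 group and 0 of the other. Values of Nsd3, Nsd1, Ezh2, Setd5, Kdm3a, Kmt2a and Kdm5a were added after they were seen. Genome sequence was GRCm38. Scripts used Python 3.11.15, pandas 2.3.3, scipy 1.17.1 and pysam 0.24.0 and were tested on simulated data.

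Alternatives were a stricter score threshold, equal list lengths, leaving out each library, peaks within 50 kb and start sites of every biotype. Further ones were other promoter, overlap and motif settings, members without Nsdhl, Setd3, Setd4 and Setd6, and pairing by replicate number. Ranks as a percent of the list were also used. Deviations from the group mean correlated at 0.0241, -0.00986 and 0.00312 between libraries of the same number, under the 0.1 set for pairing, so the numbers were not taken to pair the samples. Assignment by gene body and leaving out the longest list of each group were added after seeing the data.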

Additional observations from a re-analysis of the deposited data

How the results depend on the processing

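The difference in members called stayed higher in senescent cells under every alternative run and ran from 2.52 to 20.4 percentage points when 1 library was left out (lowest without senescent replicate 2, highest without control replicate 3). That over all genes moved with it, from 0.334 to 9.09 without the same libraries. The difference in E-box share stayed under the control SD of 25.0 in size and changed sign, with 12.1 percentage points above the median score, 10.3 at equal list lengths and -16.1 to 8.49 leaving out 1 library. The 4 separated members were also those above the median score, but 2 (Ehmt2 and Nsd3) remained with start sites of every biotype, and leaving out 1 library gave 4 to 9, the 9 without senescent replicate 3, where 24% of all genes with a peak were separated (23.2% to 26.4% over the libraries left out, 18.1% with all). The 8 senescent-only regions became 4 at equal list lengths, 5 with every biotype, 2 when 3 of 3 libraries were asked for and 3 without the longest list of each group (chosen after seeing the data). In that order, 12.5%, 9.44%, 3.73% and 15.6% of all regions were senescent-only, beside 9.44% under the main settings. Leaving out 1 library gave 2 to 12, with 5 without senescent replicate 1 or 3, 2 without senescent replicate 2 and 12 without control replicate 3, beside 7.02%, 5.97%, 5.34% and 21.4% of all regions. The 3 control-only regions became 1 above the median score, within 50 kb, with every biotype, without Nsdhl, Setd3, Setd4 and Setd6, in 3 of 3 libraries and without the longest lists. In that order, 5.23%, 4.52%, 5.86%, 5.86%, 1.58% and 4.68% of all regions were control-only, beside 5.86% under the main settings. Leaving out 1 library gave 1 to 4, with 1 without control replicate 3 (2.37% of all regions) and 4 without senescent replicate 2 (9.80%). The cause of these shifts was not tested. With the replicate block, pairing libraries of the same number, 5 members moved the same way in all 3 pairs, against 4 separated without it, beside 22.3% and 18.1% of all genes with a peak. The numbers were not shown to pair the samples. With ranks taken as a percent of the list, Ehmt2, Kmt2e, Nsd3 and Setd4 were again the separated members, beside 12.7% of all genes with a peak. Unknown depth limits all counts of peaks not called.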

Other observations

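Assignment to the nearest start site leaves out peaks that lie inside a member but nearer to another gene. Of 30 regions centred inside a member gene, 7 in 5 genes went to a neighbour. One of them, in an intron of Jarid2 at chr13:44869552-44869734, was called in all 3 control libraries at ranks 240.5, 335 and 464.5 and in no senescent library. It lies 138372 bp from the Jarid2 start site and 132191 bp from that of Dtnbp1, to which it was assigned. It held none of the motifs searched within 100 bp of its centre. Smyd1 and Smyd3, which had no peak by the nearest start site, each held intronic regions assigned to Krcc1 and Kif26b.

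Promoter regions of members held 9 E-boxes, of which 5 were followed by AC on one of the strands (CACGTGAC), beside 32.6% of the 1772 E-boxes in all promoter regions. Away from promoters it was 1 of 17, beside 15.8%. The 5 lie at Ehmt2 (the one 18 bp upstream), Kdm4c (both), Nsd3 and Smyd4, and those of Kdm2a, Kdm3a and Kdm4b and the other Ehmt2 E-box lack it. Ehmt2 and Nsd3 had better ranks in every senescent library, and Kdm4c and Smyd4 were called in senescent libraries only. This was noticed after the sequences were read, rests on 9 sites, and no relation to the groups was tested.

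Control replicate 3 had 2 peaks on chromosome Y, 1 of them 1 bp from the start site of Uty, the Y-linked relative of Kdm6a, at rank 2788. The other 5 libraries had 0, and the methods describe the mice as female. Uty is no member by the rule, and the Y-linked member Kdm5d had no peak in that library.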
